A study of Mus musculus with 6 samples.

Results

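The transcripts described here are the 10 genes of prostaglandin synthesis, inactivation and reception in the list *Ptgs1*, *Ptgs2*, *Ptges*, *Ptgis*, *Ptger1*, *Ptger2*, *Ptger3*, *Ptger4*, *Ptgfr* and *Hpgd*, chosen by gene symbol from a table of 25140 genes. All 10 were found in the table once each. RNA-seq of polyadenylated mRNA was performed in primary cardiac fibroblasts of C57BL/6 mice, taken from the adult heart and used at passage 1. All libraries came from cells held in 1% FBS for 16 h before 24 h of treatment, 3 with vehicle and 3 with TGFβ at 10 ng/mL, a cytokine that turns fibroblasts into contractile myofibroblasts. The study's methods give 24 h, not 16 h, in 1% FBS before treatment, and state that low serum was kept during treatment. The labels and methods give cardiac fibroblasts, whereas the study's account of its results speaks of embryonic fibroblasts (MEFs). Bulk RNA cannot tell fewer cells of a type apart from less RNA per cell.

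Prostaglandins are lipid mediators made on demand from arachidonic acid. A phospholipase frees the fatty acid from membranes, a cyclooxygenase (PTGS1, mostly constitutive, or PTGS2, inducible) turns it into the unstable intermediate PGH2, and a terminal synthase makes the final product, PGE2 through PTGES or prostacyclin (PGI2) through PTGIS. The products leave the cell and act on G-protein-coupled receptors. EP2 and EP4 (*Ptger2*, *Ptger4*) and the prostacyclin receptor raise cAMP, EP3 (*Ptger3*) lowers it, and EP1 (*Ptger1*) and the PGF2α receptor FP (*Ptgfr*) raise calcium. HPGD oxidizes prostaglandins and ends their action. In fibroblasts, PGE2 and prostacyclin are best known as signals that restrain matrix synthesis through cAMP.

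With TGFβ, *Ptgs2* rose 5.84-fold and *Ptges*, *Ptger1* and *Ptger4* fell, whereas no change was called for *Ptgs1*, *Ptgis*, *Hpgd* or *Ptgfr*. Thus 4 of the 8 members that could be tested changed, 1 higher and 3 lower, at an adjusted p under 0.05 from edgeR's quasi-likelihood test. Across all 14334 genes tested, 40.7% were called, 20.5% higher and 20.1% lower, so the share called among the members was near the background. *Ptger2* and *Ptger3* had too few counts for the test. The median log2 fold change of the 8 tested members was -0.29, and that of all tested genes was -0.0013. The level in CPM (counts relative to the scaled library size) did not overlap between groups for 5 of these 8 members, 1 with TGFβ above (27.2% of all genes tested) and 4 with TGFβ below (26.1%), against 53.3% of all genes in either direction. A called change of more than 1 on the log2 scale was found for 3 members, *Ptgs2*, *Ptges* and *Ptger1*, and for 6.77% of all genes tested.

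**Figure D1:**
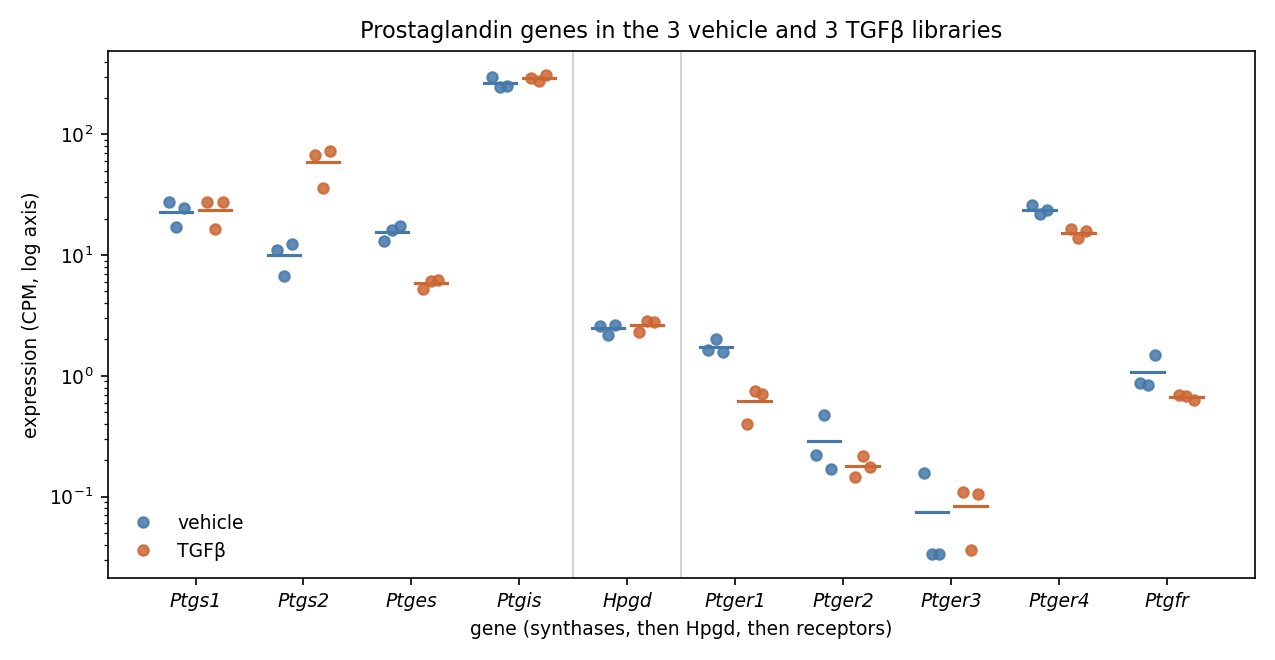
Expression of the 10 genes in CPM on a log axis, with single libraries as points (blue for vehicle, orange for TGFβ, 3 each) and group means as horizontal lines. The 3 TGFβ points of Ptgs2 lie above all vehicle points, those of Ptges, Ptger1, Ptger4 and Ptgfr lie below, and the groups overlap for the other genes.

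The libraries held 27851677 to 31072338 counts on genes. Because the columns of the table name the group and no replicate number, libraries are named by group and total count. Values are listed for the vehicle libraries of 31072338, 29296570 and 29331999 counts and then for the TGFβ libraries of 27851677, 28894151 and 28641986 counts, an order that pairs no libraries. All 9 fibroblast markers checked were expressed, with a summed level of 35738 to 40884 CPM in vehicle and 39961 to 43472 CPM in TGFβ libraries, and 6 of them were lower. All 7 myofibroblast markers listed in the table rose, from a sum of 8568 to 9484 CPM to one of 20610 to 20847 CPM. Lists of markers of other cells had lower sums. The sums ran from 446 to 692 CPM in vehicle and 409 to 566 CPM in TGFβ libraries for 7 endothelial markers (none called), from 251 to 362 and 215 to 322 CPM for 8 leukocyte markers (1 lower), and from 55.7 to 79.3 and 71.8 to 116 CPM for 5 mural cell markers (1 higher). They ran from 24.6 to 83.7 and 16.1 to 41.6 CPM for 5 mesothelial markers (none called), from 38.1 to 59.3 and 27.1 to 40.2 CPM for 5 cardiomyocyte markers (2 tested, none called), and from 23.5 to 39.5 and 15.6 to 26.5 CPM for 3 mast cell markers (2 tested, 1 lower). The B-cell marker *Cd79a* was at 0 in the vehicle libraries, and *Cd3e*, *Tpsb2* and *Cma1* were not listed in the table. The sums of every list of other cells overlapped between the groups, and their part in the results was not tested.

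The promoters of the 4 genes on which the comparison turns are shown to let their sequence be read beside their response: *Ptgs2* (higher), *Ptges* and *Ptger4* (lower) and *Ptgs1* (not called). Each runs from 250 bases before to 30 bases after the start of the RefSeq transcript (build GRCm38.p6), 5′ to 3′ on the strand of the gene, with matches to the searched motifs in capitals. They are *Ptgs2* at chr1:150099781-150100060 (plus strand), *Ptges* at chr2:30903268-30903547 (minus strand), *Ptger4* at chr15:5244158-5244437 (minus strand) and *Ptgs1* at chr2:36230176-36230455 (plus strand).
Ptgs2: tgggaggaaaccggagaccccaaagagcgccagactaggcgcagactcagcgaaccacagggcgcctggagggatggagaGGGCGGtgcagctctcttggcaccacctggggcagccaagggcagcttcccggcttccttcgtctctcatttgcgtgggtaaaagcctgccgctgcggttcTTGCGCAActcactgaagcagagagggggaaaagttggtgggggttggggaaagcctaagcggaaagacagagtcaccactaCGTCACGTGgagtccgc
Ptges: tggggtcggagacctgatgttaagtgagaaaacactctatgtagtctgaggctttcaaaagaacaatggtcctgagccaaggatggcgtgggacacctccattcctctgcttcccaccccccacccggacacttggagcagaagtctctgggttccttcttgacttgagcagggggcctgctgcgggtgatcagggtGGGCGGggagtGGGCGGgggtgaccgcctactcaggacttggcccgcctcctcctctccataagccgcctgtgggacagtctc
Ptger4: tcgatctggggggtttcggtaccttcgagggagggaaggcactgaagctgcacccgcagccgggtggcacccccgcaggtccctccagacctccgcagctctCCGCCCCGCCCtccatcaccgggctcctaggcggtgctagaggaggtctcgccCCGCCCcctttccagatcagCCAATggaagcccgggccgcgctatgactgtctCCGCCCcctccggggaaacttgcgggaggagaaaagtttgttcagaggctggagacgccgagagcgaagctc
Ptgs1: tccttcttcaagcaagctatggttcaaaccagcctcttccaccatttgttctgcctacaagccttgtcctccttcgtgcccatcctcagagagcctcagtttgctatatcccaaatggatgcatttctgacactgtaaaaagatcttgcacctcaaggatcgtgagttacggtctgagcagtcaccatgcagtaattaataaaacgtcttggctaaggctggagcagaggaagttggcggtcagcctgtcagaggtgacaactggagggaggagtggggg
The motifs, searched on both strands, were a TATA box (TATAAA, in 13.1% of promoters), the TGACG core of a cAMP response element (CRE, in 19.9%), an E-box (CACGTG, in 6.79%), a C/EBP element (TTGCNNAA, in 10.4%), a SMAD element (CAGACA, in 19.6%), a GC box (GGGCGG, in 34.7%), a CCAAT box (CCAAT, in 36.1%), an AP-1 site (TGANTCA, in 7.46%) and the NF-kB consensus (in 7.94%). The shares are over windows of the same length of all 32851 promoters of the RefSeq table. *Ptgs2* held a GC box from -170 to -165, a palindromic C/EBP element from -69 to -62, a CRE core on the reverse strand from 14 to 18 and an E-box from 17 to 22 that overlaps it, counted from 1 at the start of the transcript with -1 just before it. The *Ptges* window held 2 GC boxes, the *Ptger4* window 4 GC boxes (2 of them overlapping) and a CCAAT box, and the *Ptgs1* window no match to any of these motifs. The RefSeq start of *Ptges* lies 26566 bases downstream of the outermost start in the gene annotation. Of the 10 members, 8 had a promoter in the table.

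*Ptgs2* (ENSMUSG00000032487), the inducible cyclooxygenase, spans bases 150100031 to 150108227 of chromosome 1, plus strand, in GRCm38 (mm10, annotation GENCODE M21), and is protein-coding like all members. It was expressed at 11.0, 6.71 and 12.3 CPM in the vehicle libraries and at 67.0, 35.8 and 72.9 CPM in the TGFβ libraries. The lowest TGFβ library thus lay well above the highest vehicle library. The log2 fold change was 2.55 (95% interval 1.84 to 3.26, SE, the standard error, 0.31), with an edgeR adjusted p of 0.000525. A called rise with TGFβ of 2 or more on the log2 scale was found in 0.740% of all genes tested. The highest and lowest replicate differed 1.84-fold with vehicle and 2.03-fold with TGFβ.

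*Ptgs1* (ENSMUSG00000047250; chromosome 2, 36230426 to 36252272, plus strand), the other cyclooxygenase, was expressed at 27.3, 17.0 and 24.5 CPM with vehicle and at 27.4, 16.3 and 27.4 CPM with TGFβ. The groups overlapped throughout their range. A log2 fold change of 0.05 (SE 0.23, edgeR adjusted p = 0.89) had a 95% interval of -0.49 to 0.58. The low values of *Ptgs1* and *Ptgs2* fell in the same libraries, the vehicle library of 29296570 counts and the TGFβ library of 28894151 counts. Both were also the libraries with the lowest sums in their group of the mesothelial markers (24.6 and 16.1 CPM), the cardiomyocyte markers (38.1 and 27.1 CPM) and the mural cell markers (55.7 and 71.8 CPM). The sums of endothelial (446 and 409 CPM), leukocyte (251 and 215 CPM), mast cell (23.5 and 15.6 CPM) and fibroblast markers (35738 and 39961 CPM) were lowest in other libraries. These were the vehicle library of 31072338 counts and the TGFβ library of 27851677 counts. The myofibroblast sum was lowest in the vehicle library of 29331999 counts and the TGFβ library of 28894151 counts. By group means, the mesothelial, cardiomyocyte, mast cell and leukocyte sums came mainly from 1 gene each, with vehicle and with TGFβ. These genes were *Upk3b*, *Tnnt2*, *Kit* and *Lyz2*, in that order. The part of other cells in the levels of *Ptgs1* and *Ptgs2* was not tested. The ratio of *Ptgs2* to *Ptgs1* within a library varied less between replicates than *Ptgs2* alone. The count of *Ptgs2* was 0.404, 0.395 and 0.504 times that of *Ptgs1* with vehicle and 2.45, 2.20 and 2.66 times with TGFβ. On the log2 scale this ratio was -1.21 ± 0.19 with vehicle and 1.28 ± 0.14 with TGFβ (SD, n = 3 each), a difference of 2.49 with no overlap of the groups (exact permutation test, two-sided p = 0.1, the smallest that 3 libraries against 3 allow). Per kilobase of exon, *Ptgs2* made up 25.1% to 29.9% of the cyclooxygenase transcripts with vehicle and 65.1% to 69.3% with TGFβ. The sum of both genes per kilobase was 5.84 to 9.42 RPKM with vehicle and 12.0 to 23.0 RPKM with TGFβ, and the more abundant cyclooxygenase transcript was *Ptgs1* with vehicle and *Ptgs2* with TGFβ.

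**Figure D2:**
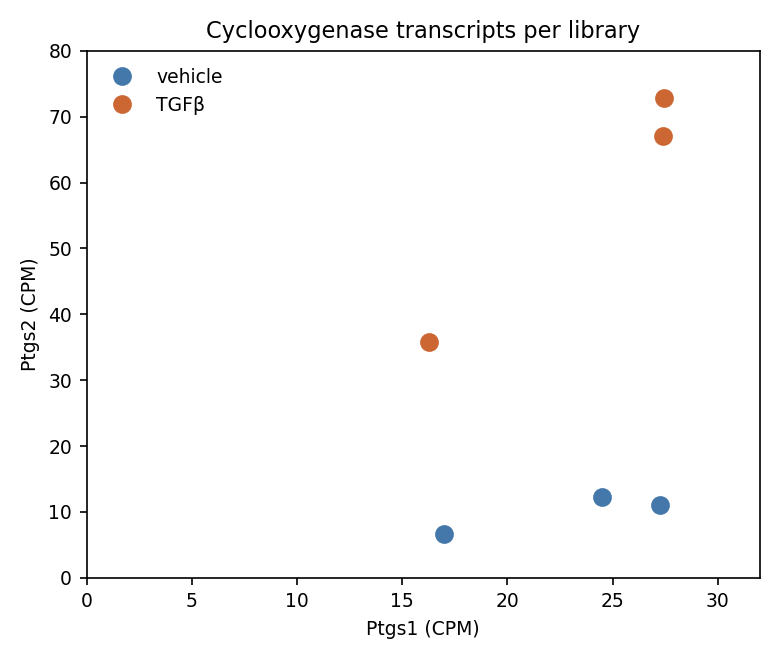
Ptgs1 (horizontal axis, CPM) against Ptgs2 (vertical axis, CPM) in the 3 vehicle (blue) and 3 TGFβ libraries (orange). Both groups lie between 16.3 and 27.4 CPM on the Ptgs1 axis and are apart on the Ptgs2 axis, and the library with the lowest Ptgs1 has the lowest Ptgs2 in each group.

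A noncoding transcript on the opposite strand, *Ptgs2os* (ENSMUSG00000097028), lies 0.068 kb from *Ptgs2* and was singled out after its values were seen. It had 2, 0 and 1 counts with vehicle and 8, 5 and 6 counts with TGFβ, too few for the test. On library totals without TMM scaling, its ratio of TGFβ to vehicle was 6.65, with a 95% counting interval of 1.96 to 35.1. This interval covers counting error only. The nearest protein-coding neighbour of *Ptgs2* listed within 200 kb was *Pla2g4a*, 138.7 kb away on the other strand, whose values are given with the phospholipases.

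Of the terminal synthases, 1 fell and the other was not called. *Ptges* (ENSMUSG00000050737; chromosome 2, 30889471 to 30929863, minus strand), the inducible PGE2 synthase that is usually coupled to PTGS2, was expressed at 13.0, 16.0 and 17.5 CPM with vehicle and at 5.19, 6.12 and 6.21 CPM with TGFβ. Each TGFβ library had less than the lowest vehicle library. *Ptges* fell 2.65-fold (log2 fold change -1.41, 95% interval -1.70 to -1.11, SE 0.13, edgeR adjusted p = 0.000146), so it and *Ptgs2* moved in opposite directions.

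*Ptgis* (ENSMUSG00000017969; chromosome 2, 167191805 to 167240604, minus strand), the prostacyclin synthase, was the most highly expressed member by far, at 298, 247 and 252 CPM with vehicle and at 293, 278 and 312 CPM with TGFβ. The groups overlapped, with the vehicle library of 31072338 counts among the TGFβ values. *Ptgis* differed by 0.15 on the log2 scale (95% interval -0.04 to 0.33, SE 0.08, edgeR adjusted p = 0.178). Without that vehicle library it was 0.24 and passed the threshold (edgeR adjusted p = 0.0231), and the adjusted p over all alternatives ran from 0.0231 to 0.432. The same library had the highest sum of mesothelial markers, 83.7 CPM against 24.6 and 33.1 CPM in the other vehicle libraries, and whether this bears on its *Ptgis* level was not tested.

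The ratio of *Ptges* to *Ptgis*, which sets PGE2 synthase against prostacyclin synthase transcripts in the same library, was 0.0437, 0.0649 and 0.0693 with vehicle and 0.0178, 0.0221 and 0.0200 with TGFβ. It was thus lower in every TGFβ library, with a difference in means of -1.55 on the log2 scale (-4.10 ± 0.36 with vehicle and -5.65 ± 0.16 with TGFβ, SD, n = 3 each). The exact permutation test gave a two-sided p of 0.1, the smallest possible. With adjustment over the 4 ratios examined, the p of each of the 3 ratios whose groups did not overlap was 0.133 (exact permutation test), which this number of libraries cannot lower.

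*Hpgd* (ENSMUSG00000031613; chromosome 8, 56294585 to 56321043, plus strand), the enzyme that inactivates PGE2 and PGF2α, was expressed at 2.61, 2.19 and 2.61 CPM with vehicle and at 2.30, 2.83 and 2.77 CPM with TGFβ. The groups overlapped, with a difference of 0.09 on the log2 scale (95% interval -0.26 to 0.44, SE 0.15, edgeR adjusted p = 0.66). Set against *Hpgd*, the count of *Ptges* was 4.96, 7.26 and 6.64 times as high with vehicle and 2.24, 2.16 and 2.23 times with TGFβ. This ratio of a synthesizing to an inactivating enzyme differed by -1.49 on the log2 scale (2.63 ± 0.29 with vehicle, 1.14 ± 0.03 with TGFβ, SD, n = 3 each), with groups that did not overlap (exact permutation test, two-sided p = 0.1, the smallest possible).

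**Figure D3:**
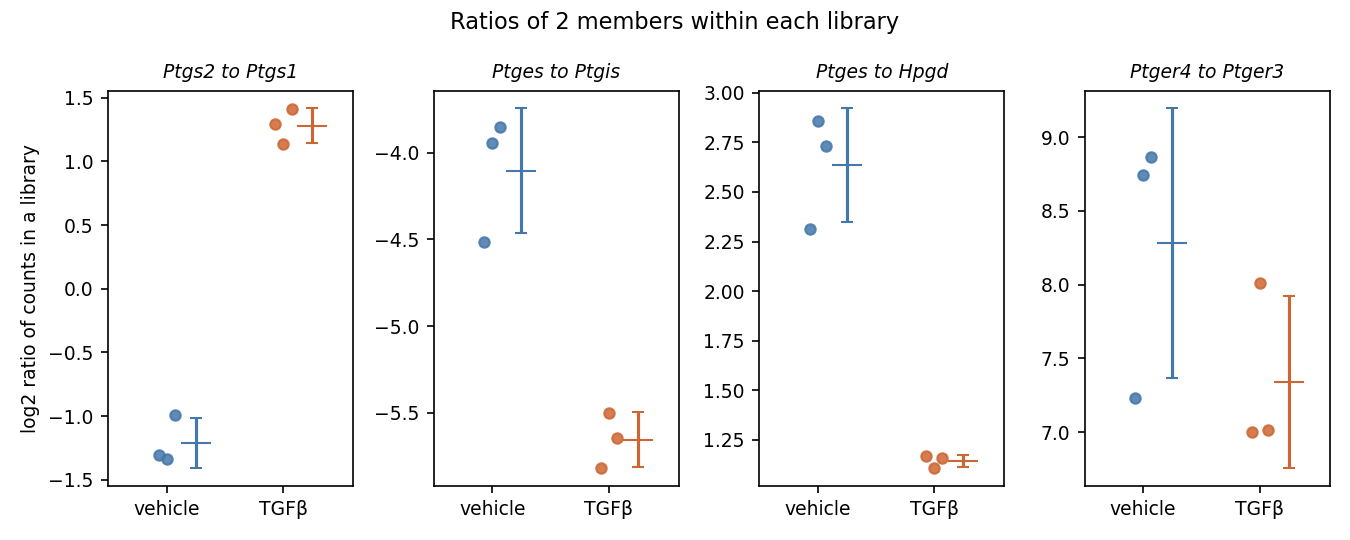
Log2 ratio of the counts of 2 members within each library (0.5 added to each count), with libraries as points, the mean and SD of 3 libraries as bars, and vertical axes that differ between panels. The groups are apart in the first 3 panels and overlap in the last.

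Among the 5 receptors that are members, *Ptger4* (ENSMUSG00000039942; chromosome 15, 5206661 to 5244187, minus strand), which encodes the cAMP-raising PGE2 receptor EP4, had the highest level per length. It was at 25.9, 21.7 and 23.5 CPM with vehicle and at 16.3, 13.9 and 15.8 CPM with TGFβ. The groups were well apart and replicates were close, within 1.19-fold of each other in each group at most. *Ptger4* fell 1.55-fold (log2 fold change -0.63, 95% interval -0.83 to -0.42, SE 0.09, edgeR adjusted p = 0.00111). Per kilobase it held 87.5% to 91.5% of the summed transcripts of the 4 EP receptors with vehicle and 91.8% to 95.3% with TGFβ, and the rest of that sum was mainly *Ptger1*, whose level is uncertain as described with that gene. Of its 75-base windows, 23.8% also occur, on either strand, in transcripts of other genes, chiefly a pseudogene on the opposite strand with 1 count in each group and 82 exonic bases shared with *Ttc33* (edgeR adjusted p = 0.205), and how the authors counted such reads was not given in the sources used here.

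*Ptger1* (ENSMUSG00000019464; chromosome 8, 83666678 to 83672753, plus strand), the receptor EP1, was low, with 52, 60 and 47 counts with vehicle and 11, 21 and 20 counts with TGFβ, or 1.63, 2.02 and 1.58 CPM against 0.402, 0.752 and 0.702 CPM. Every TGFβ library was well below every vehicle library. *Ptger1* fell 2.80-fold (log2 fold change -1.49, 95% interval -2.07 to -0.90, SE 0.25, edgeR adjusted p = 0.00269). Of its 75-base windows, 53.5% also occur, on either strand, in transcripts of other genes. The library kit marks strand, but whether the counting used it is not stated, so the level and the fall of *Ptger1* are uncertain.

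*Ptgfr* (ENSMUSG00000028036; chromosome 3, 151796502 to 151837630, minus strand), the receptor FP, had 28, 25 and 44 counts with vehicle and 19, 19 and 18 with TGFβ. All TGFβ libraries were below the lowest vehicle library in CPM (0.880, 0.843 and 1.48 against 0.695, 0.680 and 0.631), but no fall was called. *Ptgfr* differed by -0.67 on the log2 scale (95% interval -1.30 to -0.03, SE 0.27, edgeR adjusted p = 0.089). The 95% intervals, here and elsewhere, are not adjusted over genes, and the unadjusted edgeR p of *Ptgfr* was 0.0421. Without the vehicle library of 29331999 counts, which held the highest value, the difference was -0.36 (edgeR adjusted p = 0.301, range over all alternatives 0.0781 to 0.301).

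The other members were near the limit of detection. *Ptger2* (ENSMUSG00000037759; chromosome 14, 44988195 to 45003820, plus strand), the receptor EP2, had 7, 14 and 5 counts with vehicle and 4, 6 and 5 with TGFβ, a ratio of 0.606 with a 95% counting interval of 0.298 to 1.19. Its exons share 246 bases with the antisense transcript *Gm17173*, which had 7 counts over the vehicle and 15 over the TGFβ libraries. *Ptger3* (ENSMUSG00000040016; chromosome 3, 157566892 to 157645888, plus strand), the receptor EP3, had 5, 1 and 1 counts with vehicle and 3, 1 and 3 with TGFβ, a ratio of 1.05 with a 95% counting interval of 0.314 to 3.51. No difference was detectable for either at this depth. These ratios and intervals use library totals without TMM scaling, and the intervals cover counting error only. The ratio of *Ptger4* to *Ptger3*, cAMP-raising against cAMP-lowering receptor, was not distinguishable between groups (8.28 ± 0.91 with vehicle and 7.34 ± 0.58 with TGFβ on the log2 scale, SD, n = 3 each, exact permutation test, two-sided p = 0.2) and rests on the few counts of *Ptger3*.

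Levels can be compared between genes only per length. In RPKM (CPM per kilobase of all annotated exons), the order with vehicle was *Ptgis* (104), *Ptgs1* (5.90), *Ptges* (3.94), *Ptger4* (3.57), *Ptgs2* (2.19), *Hpgd* (1.47), *Ptger1* (0.320), *Ptgfr* (0.157), *Ptger2* (0.0552) and *Ptger3* (0.0131), each a mean of 3 libraries. Library ranges of the neighbours *Ptgs1* and *Ptges*, *Ptges* and *Ptger4*, and *Ptgs2* and *Hpgd* overlapped. With TGFβ the order was *Ptgis* (115), *Ptgs2* (12.8), *Ptgs1* (6.10), *Ptger4* (2.31), *Hpgd* (1.57), *Ptges* (1.49), *Ptger1* (0.113), *Ptgfr* (0.0987), *Ptger2* (0.0344) and *Ptger3* (0.0147), where *Hpgd* and *Ptges*, and *Ptger1* and *Ptgfr*, overlapped. Prostacyclin synthase thus led in both groups, *Ptgs2* and *Ptges* changed places most, and the receptors other than *Ptger4* stayed at the bottom. The level of *Ptger1* carries the uncertainty given above.

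Of the other genes of the pathway, taken from 7 lists of release, synthesis, reception, transport, lipoxygenases and cAMP signalling, 65 were tested and 33 called (15 higher, 18 lower), or 50.8% against 40.7% of all genes. In the supply of arachidonic acid, 6 of 12 tested genes were higher and 2 lower, with a median log2 fold change of 0.22. The share called was 66.7%, against 40.7% of all genes tested (20.5% higher and 20.1% lower). *Pla2g4a*, the cytosolic phospholipase that releases arachidonic acid for cyclooxygenases, was at 25.6, 23.6 and 29.3 CPM with vehicle and at 45.4, 43.4 and 53.2 CPM with TGFβ. It was higher in every TGFβ library than in any vehicle library (log2 fold change 0.86, SE 0.10, edgeR adjusted p = 0.000468). *Acsl4*, which activates arachidonic acid for its return to phospholipids, rose from 92.5 ± 4.07 to 131 ± 6.30 CPM (SD, n = 3 each; log2 fold change 0.51, edgeR adjusted p = 0.00024), and *Mboat7*, which esterifies it into phosphatidylinositol, from 55.9 ± 2.21 to 77.2 ± 3.82 CPM (SD, n = 3 each; log2 fold change 0.47, edgeR adjusted p = 0.000344). *Anxa1*, annexin A1, long known as an inhibitor of phospholipase activity, fell from 517 ± 39.9 to 354 ± 30.9 CPM (SD, n = 3 each; log2 fold change -0.54, edgeR adjusted p = 0.00133). Genes of release and of re-esterification are thus among those that rose. The phospholipases did not all rise, as 2 named after their values were seen show. *Pla2g15* was called lower (log2 fold change -0.25, edgeR adjusted p = 0.0229), and *Pla2g6* was not called (-0.06).

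Of the other prostanoid synthases, 1 of 7 tested was called, or 14.3% against 40.7% of all genes tested. *Ptges3*, a cytosolic PGE synthase that is also the HSP90 cochaperone p23, was higher by 0.19 on the log2 scale (SE 0.04, edgeR adjusted p = 0.00694). Other genes hold 21.2% of its 75-base windows. The log2 fold change was -0.07 for *Ptges2*, the membrane-associated PGE synthase, 0.09 for *Akr1b3*, an aldo-keto reductase with PGF synthase activity, -0.10 for the carbonyl reductase *Cbr1*, -0.16 for *Fam213b*, another PGF synthase and -0.24 for *Hpgds*, a PGD synthase (95% interval -0.68 to 0.20), none of them called. *Tbxas1*, the thromboxane synthase, was not called either, at 0.50 with a 95% interval of -0.31 to 1.31, and ran from 0.14 (without the TGFβ library of 28641986 counts) to 0.79 (without the vehicle library of 29331999 counts) when a library was left out, while *Hpgds* ran from -0.33 (without the vehicle library of 29296570 counts) to -0.10 (without the vehicle library of 29331999 counts). *Ptgds* had too few counts for the test. The PGE synthases therefore did not move as one, with *Ptges* falling 2.65-fold beside small differences in *Ptges2* and *Ptges3*.

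The receptor for prostacyclin, *Ptgir*, showed the largest fall among the tested members and the tested genes of the other synthase, receptor, supply and transport lists. It was at 24.8, 33.2 and 32.8 CPM with vehicle and at 5.63, 7.23 and 7.23 CPM with TGFβ. The groups were far apart (log2 fold change -2.17, 95% interval -2.51 to -1.84, SE 0.14, edgeR adjusted p = 3.42e-05). Its ligand's synthase *Ptgis* was not called, and the cAMP-raising receptors *Ptgir* and *Ptger4* were both lower. *Tbxa2r*, the thromboxane receptor, was at 29.8 ± 4.35 CPM in vehicle and 28.4 ± 3.18 CPM in TGFβ libraries (SD, n = 3 each; log2 fold change -0.07, 95% interval -0.35 to 0.21). *Ptgfrn*, a membrane protein that binds FP and restrains it, was higher by 0.16 on the log2 scale (edgeR adjusted p = 0.0165), a call lost without any one of 3 libraries (the vehicle libraries of 31072338 and 29296570 counts and the TGFβ library of 28894151 counts, edgeR adjusted p = 0.0569, 0.061 and 0.0696, range over all alternatives 0.0111 to 0.0696). *Ptgdr* was not listed in the table, and *Ptgdr2* had too few counts.

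Of the 5 genes of transport and inactivation, 3 were lower and none higher, where 20.1% of all genes tested were lower. In either direction the share called was 60.0%, against 40.7% of all genes tested. *Slco2a1*, the transporter that takes PGE2 up for oxidation by HPGD, was at 77.1, 62.1 and 72.4 CPM with vehicle and at 48.1, 41.8 and 40.9 CPM with TGFβ (log2 fold change -0.69, SE 0.09, edgeR adjusted p = 0.000843). *Abcc4*, an efflux pump for prostaglandins and cyclic nucleotides, fell from 31.2 ± 0.86 to 23.9 ± 2.72 CPM (SD, n = 3 each; log2 fold change -0.38, edgeR adjusted p = 0.00724). *Ptgr1*, a reductase of the oxidized products, fell from 38.5 ± 1.88 to 28.8 ± 0.82 CPM (SD, n = 3 each; log2 fold change -0.42, edgeR adjusted p = 0.000596). The log2 fold change was -0.03 for *Ptgr2* (59.0% of its windows found elsewhere) and -0.12 for *Zadh2*, and neither was called.

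**Figure D4:**
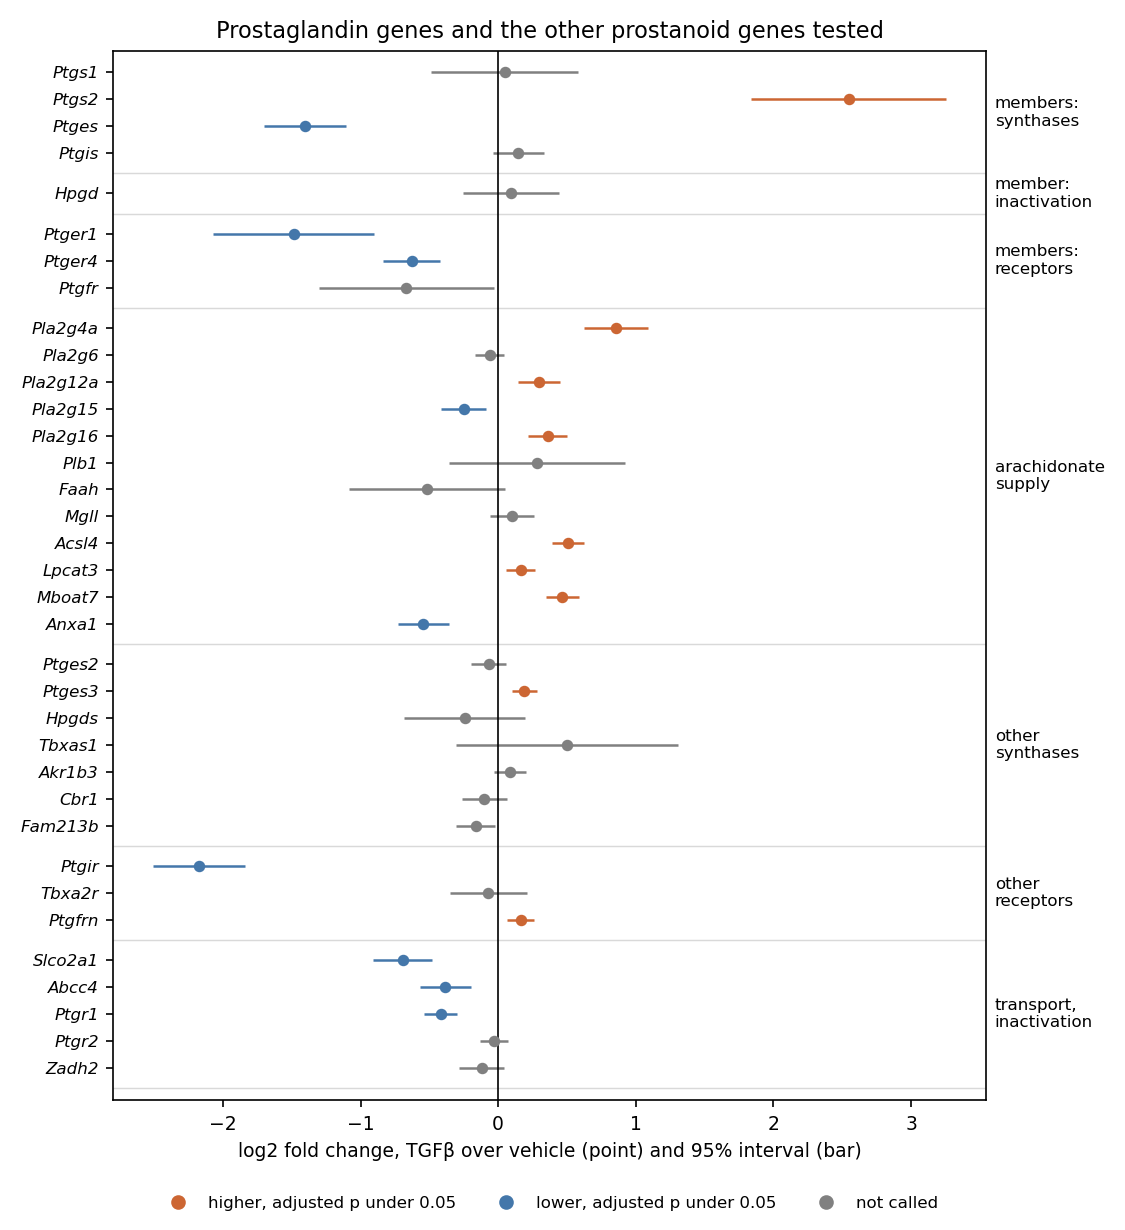
Log2 fold change of TGFβ over vehicle (points) with its 95% interval (bars) for the 8 tested members and the tested genes of 4 related lists (orange higher, blue lower at an edgeR adjusted p under 0.05, grey not called). Ptgs2 lies farthest to the right at 2.55, and Ptgir, Ptger1 and Ptges farthest to the left.

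Downstream of EP2, EP4 and the prostacyclin receptor, the cAMP signalling list had 7 genes higher and 9 lower among 26 tested, with a median log2 fold change of -0.18. The share called was 61.5%, against 40.7% of all genes tested (20.5% higher and 20.1% lower). *Rapgef4*, a cAMP-activated exchange factor (EPAC2), rose from 1.95, 1.31 and 2.61 CPM to 9.72, 9.35 and 14.6 CPM (log2 fold change 2.51, SE 0.26, edgeR adjusted p = 0.000272). The other such exchange factor in the list, *Rapgef3*, named after its values were seen, was not called (log2 fold change -0.07, edgeR adjusted p = 0.511). Per kilobase, *Rapgef3* stayed above *Rapgef4* with TGFβ (5.08 against 1.68 RPKM). *Adcy7*, an adenylyl cyclase that makes cAMP, rose from 54.0, 56.5 and 41.1 CPM to 181, 186 and 155 CPM (log2 fold change 1.78, SE 0.12, edgeR adjusted p = 4.19e-05). *Pde7a*, a phosphodiesterase that degrades cAMP, rose from 25.5 ± 1.30 to 65.1 ± 3.74 CPM (SD, n = 3 each; log2 fold change 1.35, edgeR adjusted p = 7.81e-06). Both classes also held genes that fell, named here after their values were seen. These were the cyclases *Adcy5* (log2 fold change -0.90) and *Adcy6* (-0.49) and the phosphodiesterases *Pde3a* (-1.05), *Pde7b* (-0.94), *Pde4b* (-0.47) and *Pde4a* (-0.38), while *Adcy3* and *Pde3b* were called higher, by 0.31 and 0.35. *Prkar2b*, a regulatory subunit of protein kinase A, fell from 54.6, 66.1 and 62.8 CPM to 16.4, 17.9 and 14.6 CPM (log2 fold change -1.91, SE 0.09, edgeR adjusted p = 9.87e-06). The other subunits in the list, also named after their values were seen, differed less. *Prkar2a* and *Prkacb* were called higher (log2 fold change 0.26 and 0.27), *Prkaca* and *Prkar1a* lower (-0.17 and -0.19), and *Prkar1b* was not called (-0.06). Of 7 tested genes that cAMP is known to induce, 3 were lower and none higher, where 20.1% of all genes tested were lower. In either direction the share called was 42.9%, near the 40.7% of all genes tested. Not called, and named after their values were seen, were *Nr4a3* (log2 fold change -0.84), *Per1* (-0.08), *Crem* (-0.02) and *Nr4a2* (0.08). *Nr4a1*, an orphan nuclear receptor, fell from 23.4 ± 6.58 to 10.2 ± 4.01 CPM (SD, n = 3 each; log2 fold change -1.21, SE 0.29, edgeR adjusted p = 0.0121). *Sik1*, a salt-inducible kinase, fell from 27.5 ± 1.12 to 15.1 ± 0.209 CPM (SD, n = 3 each; log2 fold change -0.86, edgeR adjusted p = 2.62e-05). *Dusp1*, a MAP kinase phosphatase, fell from 198 ± 26.6 to 107 ± 25.8 CPM (SD, n = 3 each; log2 fold change -0.89, edgeR adjusted p = 0.00409). These genes are known to respond to serum and other signals too.

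**Figure D5:**
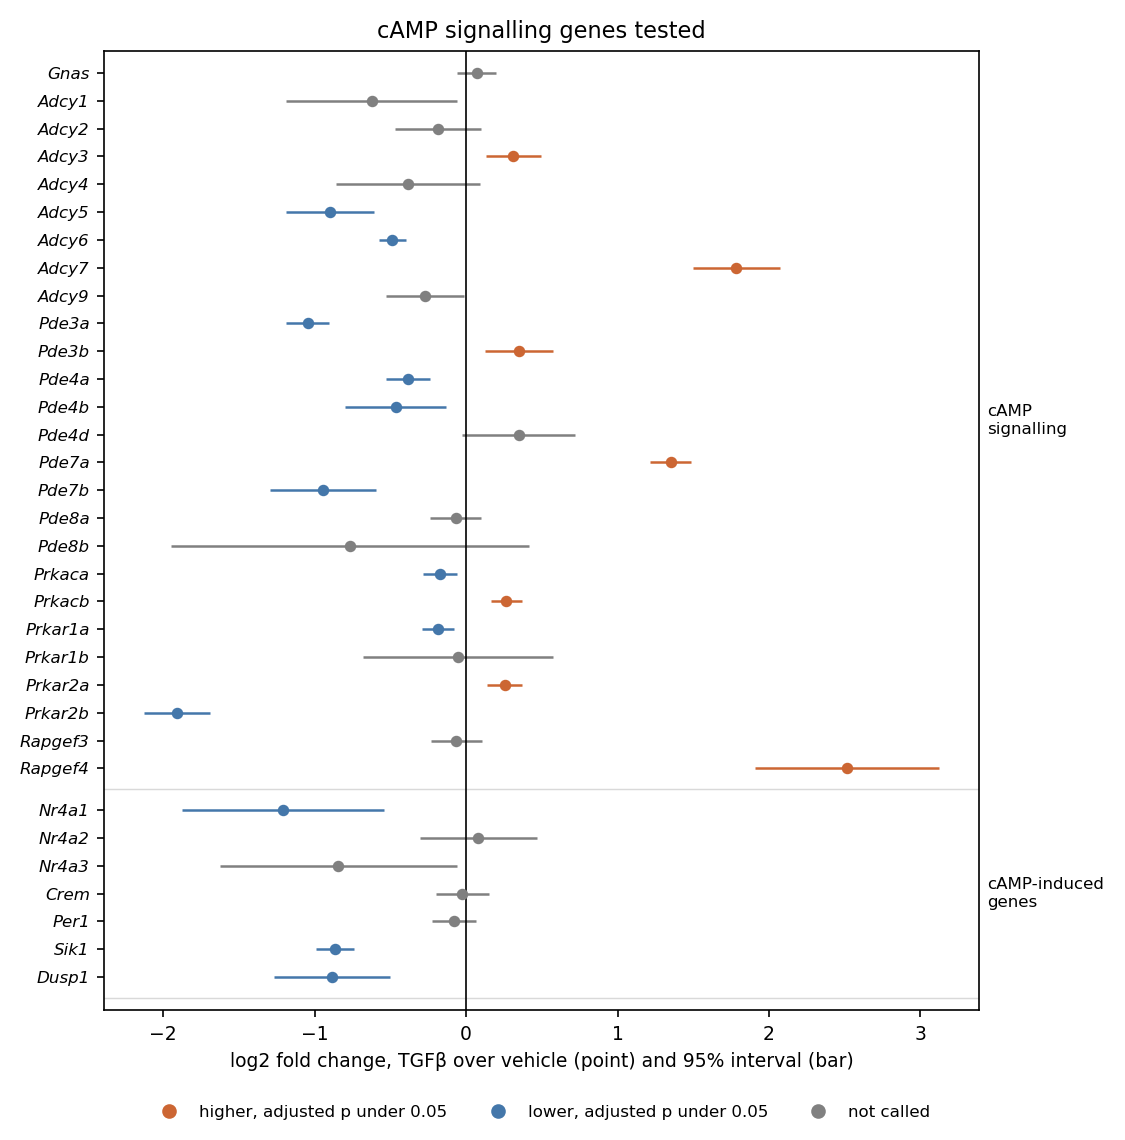
Log2 fold change of TGFβ over vehicle (points) with its 95% interval (bars) for the tested genes of cAMP signalling and of a list of genes that cAMP induces (orange higher, blue lower at an edgeR adjusted p under 0.05, grey not called). In the cAMP signalling list 7 genes are higher and 9 lower, and in the induced list 3 are lower.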

How the data were processed

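RNA was measured in 3 vehicle and 3 TGFβ libraries. The authors deposited raw whole-number counts per gene and library, from stranded poly(A) libraries read from a single end over 75 bases. Reads were aligned to mm10 per the methods, and the submitters' processing notes name DESeq2. The aligner, the counting tool, its strand setting and the annotation were not given in the sources used here. The authors' own fold changes and p-values in the table were not used, and 0 other columns of single samples were set aside.

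Genes were filtered with filterByExpr, leaving 14334 of 25140, scaled with TMM factors and compared with edgeR 4.0.16 in R 4.3.3 (quasi-likelihood test, no covariate, Benjamini-Hochberg adjustment over all genes tested, threshold 0.05). CPM are counts over the TMM-scaled library size, and RPKM are CPM per kilobase of exon. DESeq2 1.42.0, limma-voom (limma 3.58.1), other scalings and filters, and leaving out each library were alternatives. The steps were tested on simulated data. No libraries were identical, and replicates differed by a chi-square per gene of 7.95 to 27.1, where sampling noise alone gives 1. The methods call them biological replicates, and p-values measure only the spread between these samples.

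The members and lists were chosen with earlier results of these data known. Named were all members, all genes of the other synthase, receptor and transport lists, of each other list at most the 4 called genes with the largest change, and the 3 genes most like *Ptgs1* and *Ptgs2*. Positions come from GENCODE M21 (25086 identifiers matched) and promoters from RefSeq (GRCm38.p6).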

Additional observations from a re-analysis of the deposited data

How the results depend on the processing

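No paired analysis was possible because the columns of the table carry no replicate number, so the planned replicate block was not run. The number of members called was 4 (1 higher, 3 lower) under each alternative of scaling, tool and filter, and 4 to 5 with each library left out in turn, 5 being reached without the vehicle library of 31072338 counts, where *Ptgis* was called higher. The calls of *Ptgs2*, *Ptges*, *Ptger1* and *Ptger4* held under all 12 alternatives, with log2 fold changes of 2.33 to 2.80, -1.52 to -1.31, -1.65 to -1.26 and -0.69 to -0.56 when each library was left out. The log2 fold change of *Ptgs1* ran from -0.13 to 0.25 in the same way and was called in none. Without a filter on low counts, *Ptger2* and *Ptger3* had adjusted p-values of 0.455 and 0.955 from edgeR. The number of pathway genes called was 33 to 34 under the other settings and 25 (without the vehicle library of 29296570 counts) to 35 with a library left out. Over all genes it was 5020 (DESeq2) to 5840 and 4489 to 5481. Upper quartile scaling called 2684 genes higher and 3076 lower, against 2944 and 2884 with TMM. Among the other genes named, *Ptgfrn* lost its call without 3 of the libraries, *Akr1b3* gained one without the vehicle library of 31072338 counts (edgeR adjusted p = 0.0455, range over its alternatives 0.0455 to 0.475) and *Fam213b* with upper quartile scaling (edgeR adjusted p = 0.047, range 0.047 to 0.22); the cause was not tested. Depth limits *Ptger2* and *Ptger3*, at no more than 14 counts in any library.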

Other observations

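The lipoxygenase arm turns arachidonic acid into leukotrienes. Its genes had group means of 4.22 CPM or less, apart from *Lta4h*. This leukotriene A4 hydrolase was at 76.4 ± 3.16 CPM in vehicle and 79.2 ± 2.86 CPM in TGFβ libraries (SD, n = 3). Per kilobase, *Alox5ap* was at 2.88 RPKM with vehicle and 2.97 RPKM with TGFβ. With vehicle it thus lay between the members *Ptger4* (3.57 RPKM) and *Ptgs2* (2.19 RPKM). Among all genes tested, edgeR called 40.7%. Of the 5 tested genes of this arm, 0 were called by edgeR, DESeq2 or limma-voom, and 1, 0 and 1 had an unadjusted p under 0.05. In edgeR it was *Ltc4s*, the leukotriene C4 synthase, at 1.04 CPM (mean) in vehicle and 0.667 CPM in TGFβ libraries (log2 fold change -0.64, edgeR adjusted p = 0.0632). *Alox5* and *Alox5ap*, the 5-lipoxygenase and its activating protein, lay at log2 fold changes of 0.16 and 0.05. These genes are named after their values were seen. *Alox15* and *Alox8* were not listed in the table.

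Over the 6 libraries, the genes whose log2 CPM followed *Ptgs2* most closely among the 10373 that averaged 5 CPM or more were *Clcf1*, a cytokine of the IL-6 family (Pearson r = 0.999), *Foxc2*, a forkhead transcription factor (r = 0.998), and *Farsa*, a subunit of phenylalanyl-tRNA synthetase (r = 0.998). Pearson r takes no account of the size of a change. From vehicle to TGFβ, mean levels went from 9.15 to 12.9 CPM for *Clcf1* and from 19.0 to 39.8 CPM for *Foxc2*. They went from 33.5 to 39.1 CPM for *Farsa*, all smaller changes than the 10.0 to 58.6 CPM of *Ptgs2*. The genes closest to *Ptgs1* were *Ier5*, an immediate early gene (r = 0.992), *Pex26*, a peroxisomal protein (r = 0.975), and *Npnt*, the matrix protein nephronectin (r = 0.957). These are descriptions over few libraries that share depth and treatment, with no test.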
